A study of Mus musculus with 18 samples.

Results

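Bone morphogenetic proteins (BMPs), activin, their secreted antagonists and the Id genes were followed in satellite cells, the stem cells of skeletal muscle, before and after muscle injury. The 9 genes were chosen by name: the ligand genes Bmp2, Bmp4 and Inhba, the antagonist genes Fst and Grem1, and Id1, Id2, Id3 and Id4. Every probe set that the array's annotation assigns to one of these symbols alone was taken, which gave 15 of 45101 probe sets, for 9 of 18194 genes. FACS was used to collect cells bearing syndecan-3, a surface proteoglycan of satellite cells, from the tibialis anterior muscle of female mice labelled 3 to 6 months old. Injured muscles had received 1.2% barium chloride 12 h or 48 h earlier, and uninjured muscles were not injected. Sdc4-/- mice carry a homozygous deletion of syndecan-4 on C57Bl/6, and wild type (WT) mice were C57Bl/6 x DBA2, so that genotype and strain cannot be told apart. Each of the 6 groups (Sdc4-/- uninjured, 12 h and 48 h, and WT uninjured, 12 h and 48 h) had 3 Affymetrix arrays, and the values are log2 GCRMA values. WT uninjured replicate 3 was not fitted, which leaves 17 arrays and 2 in the WT uninjured group, and its values are given where they bear on a result. The paper left out 1 WT uninjured replicate, taken here to be this one, because its expression clustered with that of the WT 12 h arrays. That choice was made from these same data, and it bears on every comparison with uninjured WT cells. Whether replicates came from separate animals is not given in the sources used here, so p-values measure the spread between these samples. Precision is limited by how few arrays there are.

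BMP ligands bind receptor serine/threonine kinases that phosphorylate Smad proteins, and the Id genes are among the best known direct targets of these Smads. Id proteins pair with E proteins and keep them from DNA, and in muscle this holds back MyoD and so differentiation. Activin A, a dimer of the Inhba product, signals through a separate branch of Smads, follistatin (Fst) binds and blocks activin and myostatin, and gremlin (Grem1) binds and blocks BMPs.

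The members fell into 3 patterns. Inhba, Fst and Id2 rose at 12 h in Sdc4-/- cells, and in WT cells at 12 h Id2 and Fst fell while Inhba stayed within its spread. Bmp4, Id3 and 1 of 3 probe sets of Id4 (1423259_at, not the leading one) were higher on the 2 fitted uninjured WT arrays than in WT cells at 12 h or 48 h and than in uninjured Sdc4-/- cells, but not on WT uninjured replicate 3. Bmp2 was lower at 48 h in WT cells, and Grem1 and Id1 passed the test in none of the 11 comparisons. Calls mean a limma p under 0.05 after Benjamini-Hochberg adjustment over all 45101 probe sets. The plot of all values of the 9 genes gives every array.

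**Figure D1:**
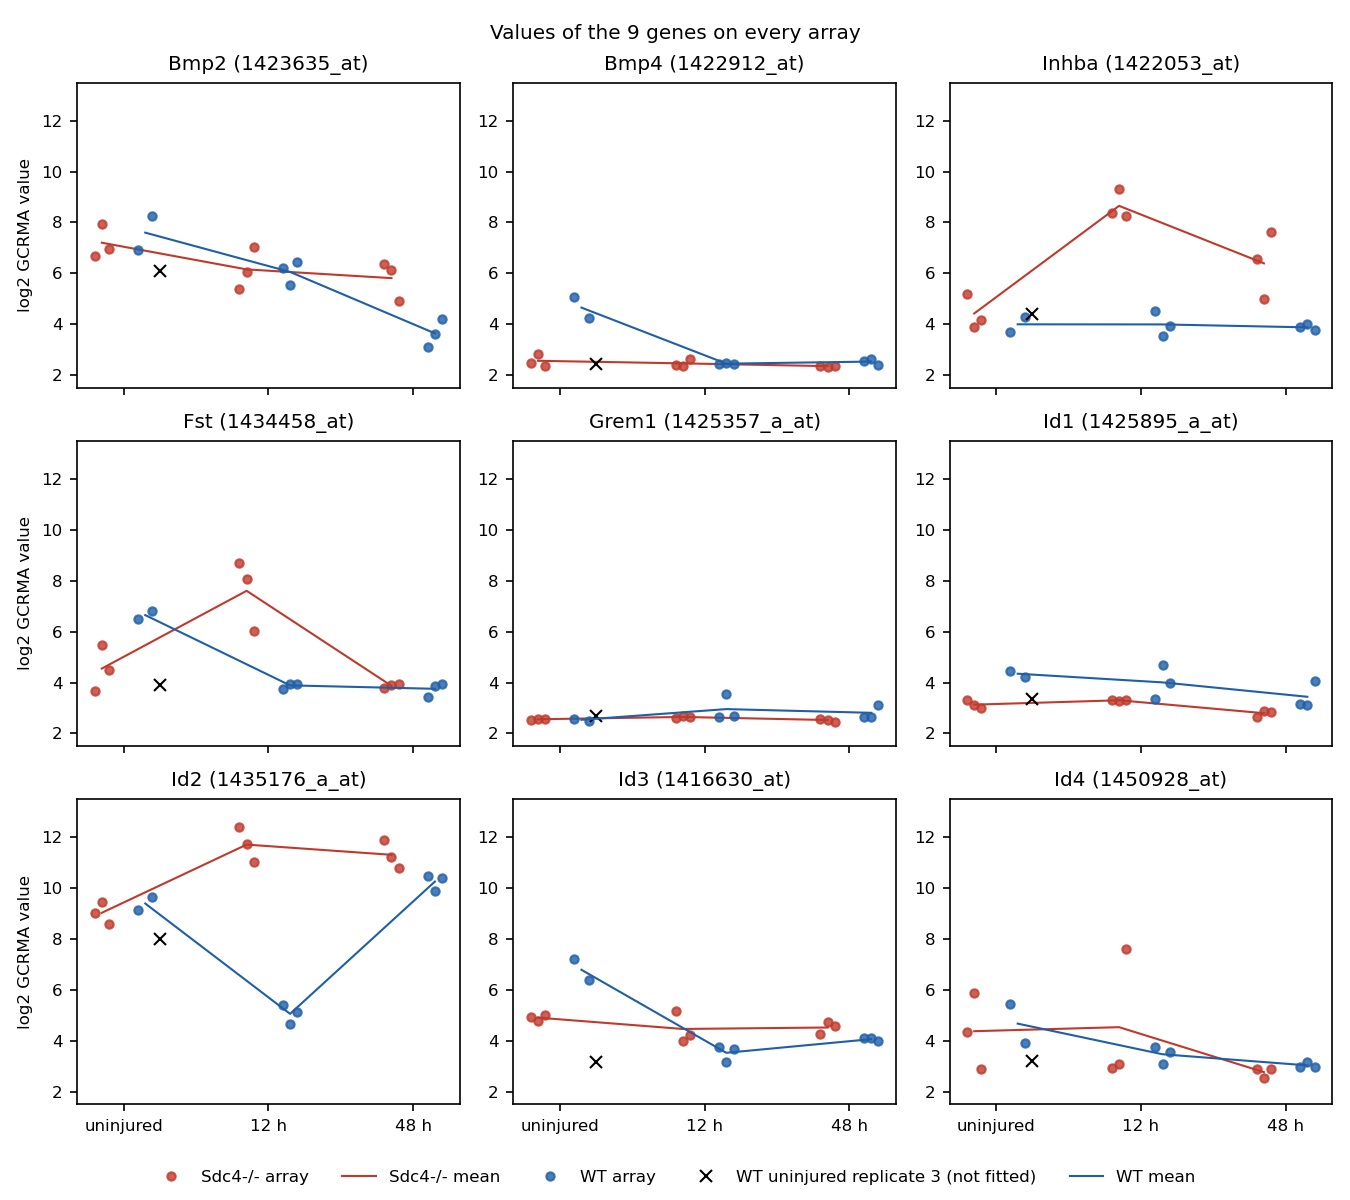
Log2 GCRMA value (vertical axis) of the leading probe set of each gene by time, with 1 point per array, Sdc4-/- in red left of WT in blue, lines through the group means and a black cross for WT uninjured replicate 3, which was not fitted. Inhba, Fst and Id2 lie apart by genotype at 12 h, where Id2 averaged 11.71 in Sdc4-/- cells and 5.06 in WT cells.

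Array quality and cell content differed between the groups, and these values touch every comparison below. The mean log2 value of 18 hybridization-control probe sets, which read labelled bacterial RNA added to each sample, was 10.08 ± 0.31, 10.90 ± 1.33 and 9.70 ± 0.87 in Sdc4-/- uninjured, 12 h and 48 h arrays (SD, n = 3 each). In WT arrays it was 8.40 ± 0.76 uninjured (SD, n = 2), 13.95 ± 0.38 at 12 h and 12.09 ± 0.41 at 48 h (SD, n = 3 each), with 12.80 in WT uninjured replicate 3. Between 2832 and 3982 probe sets exceeded a log2 value of 5 in WT 12 h arrays, against 5076 to 7864 in the other fitted arrays. The targeted gene Sdc4 had means of 2.50, 2.51 and 2.55 in Sdc4-/- cells at 0, 12 and 48 h with probe set 1417654_at, against 2.97, 2.94 and 6.56 in WT cells. The other Sdc4 probe set, 1448793_a_at, averaged 4.20, 4.71 and 4.92 in Sdc4-/- cells, against 4.64, 4.03 and 7.66 in WT cells, and was thus not lower in Sdc4-/- cells at 12 h. Whether either probe set lies in the deleted part was not checked. Of 12 satellite cell markers, between 2 (WT uninjured) and 5 (Sdc4-/- uninjured) averaged under 3 in a group, near the background of the arrays. Myod1 did so in all 6 groups, Pax7 in all but WT uninjured, and Calcr, Cd34 and Myf5 in some groups. Cdh15, Itga7, Vcam1, Chodl, Sdc3 and Met did so in no group. Transcripts of macrophages, neutrophils, fibroblasts, pericytes and endothelium were also present. In such bulk samples fewer cells of a type and less RNA per cell cannot be told apart.

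Promoter sequence is shown for Bmp4, Id3 and Id4, which each had a probe set called lower in WT cells at 12 h and 48 h and in uninjured Sdc4-/- cells, all against uninjured WT cells, and for Id2, a gene of the Id family without these calls at 48 h and between uninjured cells. The windows hold the 250 bases before a transcription start in RefSeq (mouse build GRCm38.p6), on the gene's strand. Capitals mark GGCGCC, a palindrome bound by BMP-type Smads, and CAGAC or its reverse complement GTCTG, a short Smad box, and the 2 motifs did not overlap in these windows. RefSeq windows were found for 6 of the 9 genes, the others being Bmp2, Fst and Id1.
Id2, chr12:25096093-25096342, minus strand: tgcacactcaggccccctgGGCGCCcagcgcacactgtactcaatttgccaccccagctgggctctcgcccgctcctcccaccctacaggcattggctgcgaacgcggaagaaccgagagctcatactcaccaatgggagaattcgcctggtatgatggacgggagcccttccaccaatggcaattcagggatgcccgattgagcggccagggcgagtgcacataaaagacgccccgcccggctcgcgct
Id4, chr13:48260866-48261115, plus strand: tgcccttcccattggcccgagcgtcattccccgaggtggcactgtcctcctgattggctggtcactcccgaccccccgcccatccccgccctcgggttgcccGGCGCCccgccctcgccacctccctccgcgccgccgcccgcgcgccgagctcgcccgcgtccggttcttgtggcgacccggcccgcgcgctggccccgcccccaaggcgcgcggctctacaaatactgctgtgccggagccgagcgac
Id3, chr4:136143572-136143821, plus strand: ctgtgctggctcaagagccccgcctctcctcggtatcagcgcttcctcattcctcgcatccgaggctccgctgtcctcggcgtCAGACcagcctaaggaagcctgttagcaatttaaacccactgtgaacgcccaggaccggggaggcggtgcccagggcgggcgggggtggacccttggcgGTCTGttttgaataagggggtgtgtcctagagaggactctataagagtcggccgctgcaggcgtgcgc
Bmp4, chr14:46390670-46390919, minus strand: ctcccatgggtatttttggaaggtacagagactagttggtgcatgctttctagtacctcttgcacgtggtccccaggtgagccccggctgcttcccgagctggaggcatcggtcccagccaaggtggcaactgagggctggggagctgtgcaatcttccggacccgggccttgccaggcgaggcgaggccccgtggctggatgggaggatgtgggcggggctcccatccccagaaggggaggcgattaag
Id2 and Id4 each held 1 GGCGCC, starting 231 and 148 bases before the start, Id3 held 2 copies of CAGAC or GTCTG, and Bmp4 held none of them. Of 32851 RefSeq promoter windows of this length, 9.59% held GGCGCC and 42.2% held CAGAC on either strand. E-box letters (CANNTG), the motif of E proteins, occurred in 66.2% of all windows, 3 times in Bmp4, 1 time in Id2 and in neither Id3 nor Id4. Such matches describe the letters and are no evidence of binding.

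Among the ligands, Inhba encodes the subunit of activin A. In Sdc4-/- cells probe set 1422053_at read 5.20, 3.90 and 4.18 uninjured, 8.37, 9.31 and 8.27 at 12 h and 6.56, 4.996 and 7.63 at 48 h. In WT cells it read 3.70 and 4.30 uninjured, 4.53, 3.54 and 3.92 at 12 h and 3.88, 4.00 and 3.76 at 48 h. All 3 Sdc4-/- 12 h arrays lay above every other array, and the WT groups overlapped each other. Sdc4-/- cells averaged 8.65 ± 0.57 at 12 h, against 4.43 ± 0.68 uninjured (SD, n = 3 each), an 18.7-fold rise (log2 change 4.23, standard error 0.56, adjusted p = 0.000855). At 12 h Inhba was 25.3-fold higher in Sdc4-/- than in WT cells (adjusted p = 0.000225; log2 difference 4.66), but 3.20 on the log2 scale with the array's control level as covariate, which did not pass (adjusted p = 0.131). The WT change at 12 h was -0.0041 (95% interval -1.38 to 1.37, adjusted p = 0.996). The 12 h changes differed between genotypes by 4.23 (Sdc4-/- minus WT, standard error 0.85, adjusted p = 0.00823), and by 1.98 in a fit with the control level given above as covariate (adjusted p = 0.702). At 48 h Sdc4-/- cells averaged 6.40 ± 1.32, with a change of 1.97 over uninjured cells that did not pass (adjusted p = 0.0776). This change was 2.67 without Sdc4-/- 48 h replicate 2, the lowest of the 3, and then passed (adjusted p = 0.00867). Inhba was 5.72-fold higher in Sdc4-/- than in WT cells at 48 h (log2 difference 2.52, adjusted p = 0.0248). The call at 48 h ended without WT 48 h replicate 2 or 3 or without Sdc4-/- 48 h replicate 1 or 3 (log2 difference 1.90 to 2.58, adjusted p = 0.0622 to 0.0882). It also ended after quantile normalization (1.65, adjusted p = 0.239), with the control level as covariate (1.38, adjusted p = 0.663) and with only these groups fitted (adjusted p = 0.11). From 12 h to 48 h Inhba fell by 2.26 on the log2 scale in Sdc4-/- cells (adjusted p = 0.0345). That fall did not pass without Sdc4-/- 12 h replicate 1, 2 or 3 or Sdc4-/- 48 h replicate 1 or 2 (-2.45 to -1.56, adjusted p = 0.0515 to 0.115). The other Inhba probe set, 1458291_at, stayed between 2.32 and 2.53 on all 17 arrays, near background. Its WT 12 h change of 0.17 (adjusted p = 0.0184) was lost without WT uninjured replicate 1 or 2 (adjusted p = 0.0504 and 0.0878).

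Fst encodes follistatin, the antagonist of activin, and its probe set 1434458_at also peaked at 12 h in Sdc4-/- cells. Values were 3.65, 5.48 and 4.51 uninjured, 8.71, 8.06 and 6.04 at 12 h and 3.79, 3.90 and 3.93 at 48 h in Sdc4-/- cells. In WT cells they were 6.50 and 6.79 uninjured, 3.77, 3.95 and 3.95 at 12 h and 3.44, 3.88 and 3.94 at 48 h. The Sdc4-/- 12 h arrays lay above those of the same genotype at 0 h and 48 h, and replicate 3 of them was the lowest of the 3. Uninjured WT arrays lay above all other WT arrays, except that WT uninjured replicate 3 read 3.89. In Sdc4-/- cells Fst averaged 7.60 ± 1.40 at 12 h, against 4.55 ± 0.92 uninjured (SD, n = 3 each), or 3.05 on the log2 scale (standard error 0.56, adjusted p = 0.00628). With only these 2 groups in the fit the change did not pass (adjusted p = 0.166). WT cells averaged 3.89 ± 0.11 at 12 h (SD, n = 3), against 6.65 ± 0.20 uninjured (SD, n = 2), a log2 change of -2.76 (adjusted p = 0.00518), and -1.84 over all 18 arrays (adjusted p = 0.0935). At 12 h Fst was 13.1-fold higher in Sdc4-/- than in WT cells (log2 difference 3.72, adjusted p = 0.00085). This did not pass with only these groups fitted (adjusted p = 0.0628) or with the control level as covariate (2.04, adjusted p = 0.338). The changes at 12 h thus ran in opposite directions, and their difference was 5.82 (Sdc4-/- minus WT, standard error 0.85, adjusted p = 0.00169), and 4.90 over all 18 arrays (adjusted p = 0.0383). In the fit with the control level as covariate the difference was 3.22 (adjusted p = 0.388) and the WT change 0.28 (adjusted p = 0.959). Uninjured Sdc4-/- cells were 2.10 below uninjured WT cells (-2.10, adjusted p = 0.106), a difference that passed without Sdc4-/- 12 h replicate 3 (adjusted p = 0.0131). By 48 h Fst in Sdc4-/- cells was 13.3-fold below its 12 h level (log2 change -3.73, adjusted p = 0.00221), and 0.0713 was the adjusted p with only these 2 groups fitted. The summed level of 8 neutrophil markers was 249 to 469 at 48 h and 4660 to 23793 at 12 h in these cells, with 3 of 8 called lower at 48 h (0.703% of all probe sets) and 0 higher. The part of neutrophils in the Fst values was not tested. In WT cells Fst was 2.90 lower at 48 h than uninjured on the log2 scale (-2.90, adjusted p = 0.0108). That call ended without WT uninjured replicate 1 (adjusted p = 0.0573), without replicate 2 (adjusted p = 0.0688), over all 18 arrays (-1.97, adjusted p = 0.239) and with the control level as covariate (-0.87, adjusted p = 0.879). Probe set 1421365_at of Fst stayed between 2.50 and 3.28 and was called in no comparison.

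Id2, an inhibitor of E proteins, showed the largest difference between genotypes among the 15 probe sets at 12 h. Probe set 1435176_a_at read 9.04, 9.46 and 8.59 uninjured, 12.39, 11.72 and 11.005 at 12 h and 11.88, 11.24 and 10.80 at 48 h in Sdc4-/- cells. The WT values were 9.13 and 9.65 uninjured, 5.39, 4.64 and 5.14 at 12 h and 10.49, 9.90 and 10.38 at 48 h. WT 12 h arrays lay below every other array, by more than the spread of any group, and WT uninjured replicate 3 read 8.002. Id2 rose 6.40-fold in Sdc4-/- cells at 12 h, to 11.71 ± 0.69 against 9.03 ± 0.44 uninjured (SD, n = 3 each; log2 change 2.68, standard error 0.38, adjusted p = 0.00117). It fell 20.2-fold in WT cells, to 5.06 ± 0.38 at 12 h (SD, n = 3) against 9.39 ± 0.37 uninjured (SD, n = 2; log2 change -4.33, standard error 0.42, adjusted p = 2.26e-05). In the fit with the control level as covariate the WT fall was -3.17 and did not pass (adjusted p = 0.231). At 12 h Id2 was 100.4-fold higher in Sdc4-/- than in WT cells (log2 difference 6.65, adjusted p = 1.03e-06). The difference of the 12 h changes was 7.01 (Sdc4-/- minus WT, 95% interval 5.79 to 8.24, adjusted p = 3.51e-05), and it passed under all 9 alternatives and with each of 17 arrays left out (6.67 to 7.36). In WT cells Id2 then rose again, by 5.20 from 12 h to 48 h (adjusted p = 2.81e-06), to a level whose difference from uninjured cells did not pass (0.86, 95% interval -0.05 to 1.78, adjusted p = 0.205), but passed after a shift by the 75th percentile (1.19, adjusted p = 0.0383). In Sdc4-/- cells Id2 was still raised at 48 h, by 2.28 over uninjured cells (adjusted p = 0.0041). The order of the group means was Sdc4-/- 12 h (11.71), Sdc4-/- 48 h (11.31), WT 48 h (10.26), WT uninjured (9.39), Sdc4-/- uninjured (9.03) and WT 12 h (5.06). Of neighbours in that order, Sdc4-/- 48 h and 12 h cells (-0.40, adjusted p = 0.683), Sdc4-/- and WT cells at 48 h (1.05, adjusted p = 0.141), WT 48 h and uninjured cells (above) and the uninjured cells of both genotypes (-0.36, adjusted p = 0.921) did not pass the test.

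The 3 Id2 probe sets did not run alike. Probe set 1422537_a_at stayed at 3.16 ± 0.01 in WT 12 h cells (SD, n = 3), against 3.18 ± 0.27 uninjured (SD, n = 2), and had no Id2 dip at 12 h. In WT cells this probe set lay close to background already when uninjured, so that a fall could hardly show in it. It read 4.50, 4.03 and 5.24 in Sdc4-/- cells at 48 h, against 3.10, 3.11 and 3.10 in WT cells, without overlap (log2 difference 1.49, adjusted p = 0.0211). This call ended without WT 48 h replicate 2 or 3 or Sdc4-/- 48 h replicate 3 (adjusted p = 0.0547 to 0.0818). It also ended with only these groups fitted (adjusted p = 0.0789), after quantile normalization (1.22, adjusted p = 0.0727) and with the control level as covariate (0.69, adjusted p = 0.685). Probe set 1453596_at kept within 2.85 and 3.13 on all 17 arrays. The heat map of probe sets shows that for Inhba and Fst, too, 1 probe set carried the change while the other lay near background.

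**Figure D2:**
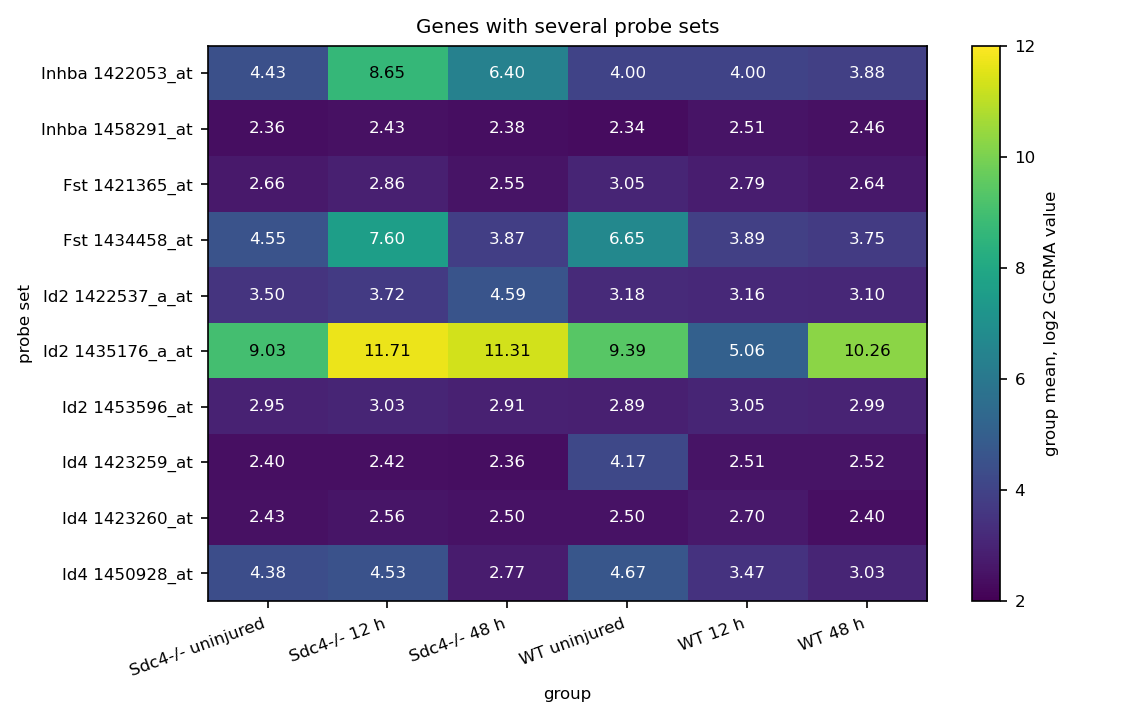
Group means (log2 GCRMA value, colour and printed number) of the probe sets of Inhba, Fst, Id2 and Id4, with Sdc4-/- groups in the left columns and WT groups in the right columns. Id2 1435176_a_at varied between 5.06 and 11.71, while Id2 1453596_at stayed between 2.89 and 3.05.

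Id3, another inhibitor of E proteins, and 1 probe set of Id4, its relative, were high in the fitted uninjured WT arrays. Probe set 1416630_at of Id3 read 4.93, 4.77 and 5.03 uninjured, 5.17, 4.00 and 4.22 at 12 h and 4.25, 4.75 and 4.57 at 48 h in Sdc4-/- cells. In WT cells it read 7.20 and 6.37 uninjured, 3.74, 3.18 and 3.66 at 12 h and 4.09, 4.10 and 4.00 at 48 h. The Sdc4-/- arrays lay together between 4.00 and 5.17, whereas both fitted uninjured WT arrays lay above all others. Id3 was 3.26 lower on the log2 scale in WT cells at 12 h than uninjured (-3.26, adjusted p = 2.49e-05) and 2.72 lower at 48 h (-2.72, adjusted p = 0.000233). Uninjured Sdc4-/- cells averaged 4.91 ± 0.13 (SD, n = 3), against 6.79 ± 0.59 in uninjured WT cells (SD, n = 2; log2 difference -1.88, adjusted p = 0.00547). WT uninjured replicate 3 read 3.15, and with it the 3 values were -2.05 (adjusted p = 0.0607), -1.51 (adjusted p = 0.357) and -0.67 (adjusted p = 0.908), so that each call ended. The uninjured difference was also lost without WT uninjured replicate 1 (-1.46, adjusted p = 0.0729) and with only the uninjured groups fitted (adjusted p = 0.132). The 12 h fall was -3.40 with the control level as covariate and did not pass (adjusted p = 0.113). At 12 h Id3 was 1.91-fold higher in Sdc4-/- than in WT cells (log2 difference 0.94, adjusted p = 0.042). That call was lost in 11 of 17 fits with 1 array left out, with adjusted p up to 0.141, and was kept only without either fitted WT uninjured array, WT 12 h replicate 1, Sdc4-/- 12 h replicate 2 or 3 or Sdc4-/- 48 h replicate 1. Among these fits the value moved most without Sdc4-/- 12 h replicate 1 (0.58). Of 9 other settings, 4 kept the call. It was lost with only these groups fitted (adjusted p = 0.208), over all 18 arrays (adjusted p = 0.443) and with the control level as covariate (1.01, adjusted p = 0.482). The trend and robust options of limma (adjusted p = 0.0546) and a fit of probe sets averaging at least 4 (adjusted p = 0.0715) lost it too.

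Id4 had 3 probe sets. Probe set 1423259_at read 4.52 and 3.82 in the fitted uninjured WT arrays, and 2.34 to 2.68 on all other fitted arrays of both genotypes, with 2.46 in WT uninjured replicate 3. In WT cells 1423259_at was thus lower at 12 h (log2 change -1.65, adjusted p = 1.63e-05) and at 48 h (-1.65, adjusted p = 3.97e-05), and lower in uninjured Sdc4-/- than in uninjured WT cells (-1.76, adjusted p = 3.6e-05). Over all 18 arrays these were -1.08 (adjusted p = 0.0406), -1.08 (adjusted p = 0.176) and -1.19 (adjusted p = 0.145), and with only the uninjured groups fitted the genotype difference did not pass (adjusted p = 0.113). Probe set 1450928_at, with the highest mean of the 3, was uneven within groups. It read 4.36, 5.89 and 2.88 in uninjured, 2.93, 3.08 and 7.60 in 12 h and 2.89, 2.54 and 2.88 in 48 h Sdc4-/- cells, against 5.43 and 3.92 uninjured, 3.76, 3.08 and 3.57 at 12 h and 2.96, 3.17 and 2.97 at 48 h in WT cells. A single Sdc4-/- 12 h array, replicate 3, stood at 7.60, and this probe set was called in no comparison (uninjured Sdc4-/- minus WT, -0.30). Probe set 1423260_at stayed between 2.28 and 3.12.

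Bmp4, a ligand that raises Id genes in many cell types, was also high on the fitted uninjured WT arrays. Probe set 1422912_at read 5.07 and 4.24 in the fitted uninjured WT arrays, against 2.34 to 2.84 on the other 15 fitted arrays and 2.43 in WT uninjured replicate 3. In WT cells the measured log2 change was -2.20 at 12 h (adjusted p = 1.35e-05) and -2.12 at 48 h (adjusted p = 4.09e-05), and uninjured Sdc4-/- cells lay at -2.09 to uninjured WT cells (adjusted p = 6.57e-05). The lower groups lay under 3, near background, as they did for Id4 1423259_at, so that the true size of these differences is not measured. With WT uninjured replicate 3 fitted the 3 Bmp4 values were -1.46 (adjusted p = 0.0355), -1.38 (adjusted p = 0.181) and -1.35 (adjusted p = 0.22). With only the uninjured groups fitted the genotype difference did not pass (adjusted p = 0.131). Over the 17 arrays Pearson r was 0.83 between Bmp4 and Id3, 0.40 between Bmp4 and the leading Id4 probe set and 0.27 between Id3 and that probe set, a description over arrays that share groups. The 2 fitted uninjured WT arrays had the highest values of both Bmp4 and Id3, and Bmp4 lay near background on the other 15. The r without those 2 arrays was not computed. Bmp4 averaged 2.57, 2.47 and 2.36 at 0, 12 and 48 h in Sdc4-/- cells, where Id3 averaged 4.91, 4.46 and 4.52.

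Markers of several cell types were also lower in WT cells after injury than on the fitted uninjured WT arrays. The summed linear level of 8 measured fibroblast markers was 4274 to 5812 in uninjured WT cells, 117 to 499 in WT cells at 12 h and 80.7 to 192 at 48 h, and 567 to 2377 in uninjured Sdc4-/- cells. It was 88.2 in WT uninjured replicate 3. For 9 pericyte and smooth muscle markers it was 6646 to 20275, 1008 to 5053 and 314 to 1059 in WT cells at 0, 12 and 48 h, 1326 to 8046 in uninjured Sdc4-/- cells and 129 in replicate 3. For 10 endothelial markers it was 1422 to 4678, 221 to 2336 and 85.9 to 310 in WT cells at 0, 12 and 48 h, 623 to 1024 in uninjured Sdc4-/- cells and 105 in replicate 3. The endothelial ranges at 0 and 12 h in WT cells overlapped, as did the pericyte ranges of uninjured cells of both genotypes. For 12 satellite cell markers it was 436 to 458, 124 to 176 and 374 to 679 in WT cells at 0, 12 and 48 h, 197 to 244 in uninjured Sdc4-/- cells and 278 in replicate 3. The 12 include Sdc3, the gene of the sorting antigen, and Sdc4, the deleted gene. Sdc4 1448793_a_at averaged 4.64, 4.03 and 7.66 on the log2 scale in WT cells at 0, 12 and 48 h, and so adds to the 48 h sum. In uninjured Sdc4-/- cells 4 of these 12 were called lower than in uninjured WT cells (2.55% of all probe sets) and 0 higher, among them Pax7 (-2.40), Chodl (-2.30) and Cd34 (-3.16). Pax7 and Cd34 averaged under 3 in uninjured Sdc4-/- cells, near background, so that the true size of their differences is not measured. At 12 h in WT cells 4 of 8 fibroblast, 7 of 9 pericyte, 5 of 10 endothelial and 5 of 12 satellite cell markers were called lower and none higher. Over all probe sets 14.2% were called lower and 23.3% higher in that comparison. Lum, Kcnj8, Abcc9, Pecam1, Tie1 and Emcn, and the satellite cell markers Calcr, Cd34, Myod1 and Pax7, averaged under 3 in WT 12 h cells. The part of these cells in the Bmp4, Id3, Id4 and Fst values was not tested.

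Bmp2, another BMP ligand, was lowest at 48 h in WT cells. In Sdc4-/- cells probe set 1423635_at read 6.69, 7.96 and 6.97 uninjured, 5.38, 6.06 and 7.03 at 12 h and 6.39, 6.14 and 4.91 at 48 h. In WT cells it read 6.93 and 8.27 uninjured, 6.20, 5.55 and 6.43 at 12 h and 3.12, 3.62 and 4.19 at 48 h, with 6.09 in WT uninjured replicate 3. The WT 48 h arrays lay below every other array. WT cells averaged 3.64 ± 0.53 at 48 h (SD, n = 3), against 7.60 ± 0.95 uninjured (SD, n = 2), a 15.5-fold fall (log2 change -3.96, standard error 0.61, adjusted p = 0.00142), and -3.45 over all 18 arrays (adjusted p = 0.0138). With the control level as covariate this fall was -4.98 and did not pass (adjusted p = 0.053). At 12 h the WT change was -1.54 (95% interval -2.87 to -0.22, adjusted p = 0.0636), without overlap of the fitted arrays. From 12 h to 48 h the WT change was -2.41 (adjusted p = 0.0119), and -2.15 without WT 48 h replicate 1 (adjusted p = 0.0554). It did not pass with only these groups fitted (adjusted p = 0.057) or with the control level as covariate (-1.90, adjusted p = 0.239). In Sdc4-/- cells the 48 h change was -1.39 (95% interval -2.58 to -0.21, adjusted p = 0.223). The genotype difference of the 48 h changes was 2.57 (Sdc4-/- minus WT) and did not pass (adjusted p = 0.109). At 48 h Bmp2 was 4.50-fold higher in Sdc4-/- than in WT cells (log2 difference 2.17, adjusted p = 0.0408). This call ended when any 1 of these arrays was left out: WT 12 h replicate 3, WT 48 h replicates 1, 2 and 3, Sdc4-/- uninjured replicate 3, Sdc4-/- 12 h replicate 2 and Sdc4-/- 48 h replicates 1 and 2 (1.88 to 2.44, adjusted p = 0.05002 to 0.126). It also ended over all 18 arrays (adjusted p = 0.0811), with only these groups fitted (adjusted p = 0.0862), after quantile normalization (1.41, adjusted p = 0.278) and with the control level as covariate (2.83, adjusted p = 0.225).

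Grem1 and Id1 were called in no comparison of the fit as described. Grem1, a BMP antagonist, read 2.47 to 2.70 in Sdc4-/- cells and 2.50 to 3.54 in WT cells, mostly near background, and its smallest adjusted p was 0.149 (WT 12 h against uninjured, 0.42). After the shift by the 75th percentile Grem1 was called in WT cells at 12 h (0.63, adjusted p = 0.0285) and 48 h (0.60, adjusted p = 0.0418). Id1 read 2.64 to 3.32 in Sdc4-/- cells and 3.13 to 4.67 in WT cells. In uninjured Sdc4-/- cells Id1 averaged 3.13 ± 0.17 (SD, n = 3), against 4.35 ± 0.16 in uninjured WT cells (SD, n = 2), a log2 difference of -1.22 (95% interval -1.93 to -0.50, adjusted p = 0.0671). This difference passed without WT 12 h replicate 1 (adjusted p = 0.0283), WT 12 h replicate 2 (adjusted p = 0.0259) or WT 48 h replicate 3 (adjusted p = 0.0352), while WT uninjured replicate 3 read 3.37. At 12 h the genotype difference was -0.70 (adjusted p = 0.125), and -1.03 without WT 12 h replicate 1 (adjusted p = 0.0174). The WT change of Id1 at 48 h was -0.91 (adjusted p = 0.094), and passed without WT 12 h replicate 1 (adjusted p = 0.0426), WT 12 h replicate 2 (adjusted p = 0.0392) or WT 48 h replicate 3 (-1.21, adjusted p = 0.0281).

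**Figure D3:**
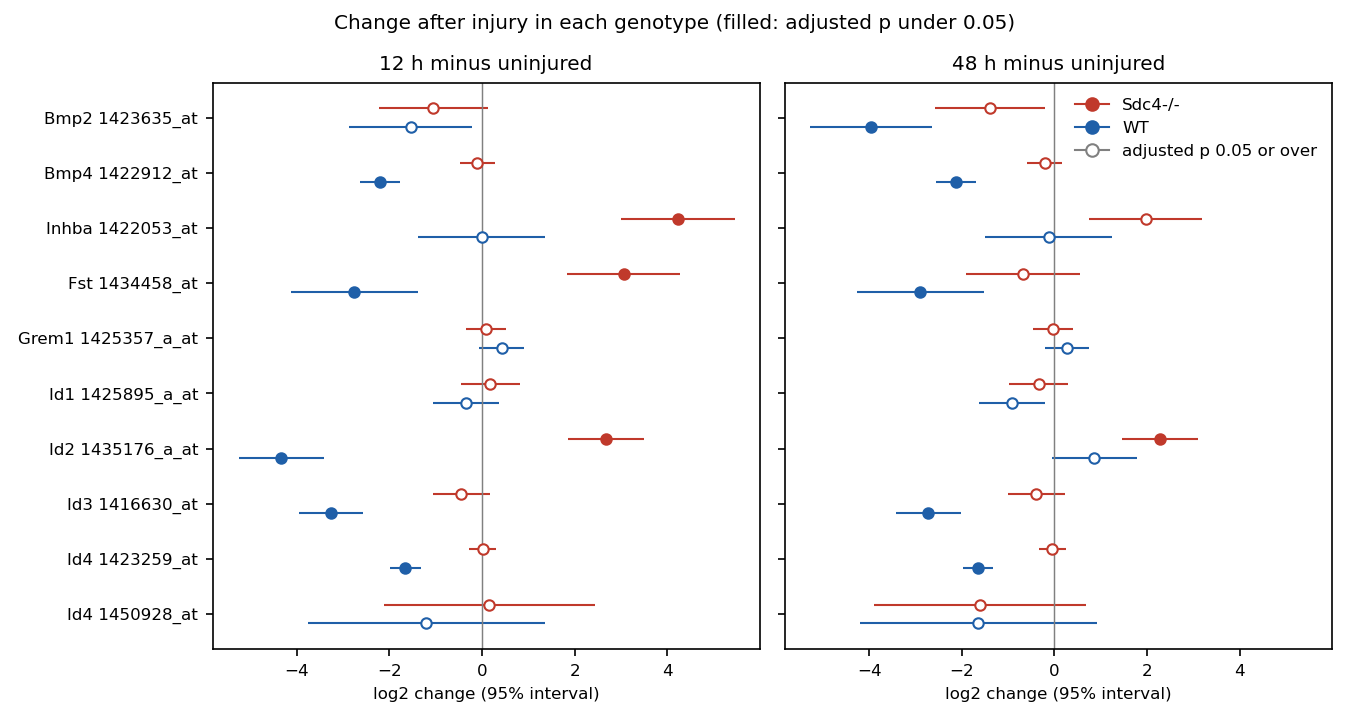
Log2 change from uninjured cells (horizontal axis) at 12 h and 48 h, with 95% intervals, for Sdc4-/- (red, upper) and WT (blue, lower) cells, and filled points where the adjusted p is under 0.05. At 12 h Inhba, Fst and Id2 lie right of 0 in Sdc4-/- cells (4.23, 3.05 and 2.68), and Fst and Id2 lie left of 0 in WT cells (-2.76 and -4.33).

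Counted over the 15 probe sets, the calls stood beside those over all 45101 probe sets as follows. In Sdc4-/- cells at 12 h 3 of 15 were called (6.41% of all), each higher (1.26% of all), with a median change of 0.13 over the 15 and 0.05 over all. At 48 h 1 of 15 was called (4.49% of all), higher (2.18% of all), and between 48 h and 12 h 2 of 15 (5.98% of all), both lower at 48 h (0.703% of all). In WT cells at 12 h 6 of 15 were called (37.5% of all), a share of 40% and thus near that of the whole array. Of these 5 were lower (14.2% of all) and 1 higher (23.3% of all), with a median of -0.34 over the 15 and 0.15 over all. At 48 h in WT cells 5 of 15 were called (12.5% of all), each lower (7.12% of all). Between 48 h and 12 h in WT cells 2 of 15 were called (12.4% of all), 1 higher at 48 h (5.74% of all) and 1 lower (6.62% of all).

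Between genotypes, 3 of 15 were called in uninjured cells (3.8% of all), each lower in Sdc4-/- cells (2.55% of all). At 12 h 4 of 15 were called (17.4% of all), each higher in Sdc4-/- cells (5.47% of all), and at 48 h 3 of 15 (5.07% of all), likewise higher (3.61% of all). The 12 h change differed between genotypes for 6 of 15 (11.1% of all) and the 48 h change for 3 of 15 (4.08% of all), in each case with the Sdc4-/- change above the WT change (4.37% and 2.92% of all). Groups of 2 or 3 arrays that did not overlap were common over the whole array. Against uninjured cells, 5 of 15 did not overlap in Sdc4-/- cells at 12 h (46.2% of all) and 5 at 48 h (27.6% of all), and 10 of 15 in WT cells at 12 h (74% of all) and 12 at 48 h (68% of all). Between 48 h and 12 h it was 10 of 15 in Sdc4-/- cells (48.3% of all) and 7 in WT cells (46.4% of all). Between genotypes it was 5 of 15 uninjured (38.1% of all), 8 at 12 h (52.4% of all) and 13 at 48 h (56.5% of all). Comparisons with uninjured cells of 1 genotype share those arrays.

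Macrophage and neutrophil markers differed between the groups in which Inhba, Fst and Id2 were compared. The summed linear level of 10 monocyte and macrophage markers was 11399 to 17304 in Sdc4-/- cells at 12 h, against 35230 to 41904 in uninjured Sdc4-/- cells, with 0 called higher and 2 lower. Of all probe sets 6.41% were called there, 1.26% higher. In WT cells it was 192 to 602 at 12 h, against 1748 to 16470 uninjured, and 21244 to 26804 at 48 h, with 40556 in WT uninjured replicate 3. Between genotypes at 12 h, 7 of the 10 were called higher in Sdc4-/- cells (5.47% of all probe sets), and Adgre1, C1qc, Cd68 and Csf1r averaged under 3 in WT 12 h cells. For 8 neutrophil markers the sum was 4660 to 23793 in Sdc4-/- cells at 12 h, 4238 to 11941 in uninjured Sdc4-/- cells and 128 to 9096 in WT cells at 12 h. Of the 8, 2 were called higher in Sdc4-/- than in WT cells at 12 h (5.47% of all probe sets). Cxcr2 averaged under 3 in WT 12 h cells. Their part in the Inhba, Fst and Id2 values was not tested.

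The rest of the pathway was counted by lists of 1 probe set a gene, here for WT cells at 12 h, where 37.5% of all probe sets were called. Of 9 Smads and intracellular inhibitors 5 were called lower and 0 higher, with Smad4, the Smad shared by the BMP and activin branches, at 3.95 ± 1.09 at 12 h (SD, n = 3), against 9.17 ± 0.54 uninjured (SD, n = 2; log2 change -5.22, adjusted p = 9.59e-05). Smad5, a BMP-type Smad, had -2.20 (adjusted p = 7.77e-05) and Smad7, an inhibitory Smad, -2.08 (adjusted p = 0.000401). Of 13 receptors 6 were lower and 3 higher, with the activin receptor Acvr2a at -4.24 (adjusted p = 5.66e-05), the BMP receptor Bmpr1a at -3.01 (adjusted p = 0.00172) and Acvr1c, which rose by 1.25 (adjusted p = 4.12e-05). Among 7 other BMP and GDF ligands 3 were lower and 3 higher: Bmp5 had -4.34 (adjusted p = 0.000537), Bmp6 -2.56 (adjusted p = 0.000425) and Gdf5 0.38 (adjusted p = 0.00481). Of 11 other secreted antagonists 2 were lower, Twsg1 at -2.46 (adjusted p = 0.000112) and Bmper at -2.61 (adjusted p = 0.000283), and 1, Sost, was higher at 2.00 (adjusted p = 0.008). None of the 4 other activin-type ligands was called, and the 2 of highest mean, Inhbb and Gdf11, had 1.39 (adjusted p = 0.338) and -0.30 (adjusted p = 0.484). Gdf11 averaged 2.60 over the 17 arrays, near background. Of 4 other BMP targets 1 was lower and 1 higher, Hey1 at -2.69 (adjusted p = 0.00148) and Msx1 at 0.58 (adjusted p = 0.0179). Gdf5 averaged under 3 in both of these groups, near background, where an order is not reliable, and Sost and Acvr1c did so in uninjured WT cells. Bmp6, Bmper and Acvr2a averaged under 3 in WT 12 h cells, so that the true size of their falls is not measured. How the list genes fare with WT uninjured replicate 3 fitted was not examined. At 48 h in WT cells, where 12.5% of all probe sets were called, 2 Smads were lower and 0 higher, 4 receptors lower and 1 higher, 3 ligands lower and 1 higher, 3 antagonists lower and 0 higher, and 1 BMP target lower and 0 higher.

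The E proteins and myogenic factors that Id proteins act on had 3 of 7 genes lower and 1 higher in WT cells at 12 h. Over all probe sets 14.2% were lower and 23.3% higher there. Tcf12, an E protein, had a log2 change of -3.25 (adjusted p = 0.000354), the myogenic factor Myf5 -1.10 (adjusted p = 0.00102) and Myog 0.38 (adjusted p = 0.0065), the last under 3 and near background in both groups. At 48 h 2 of the 7 were lower and 0 higher, with 12.5% of all probe sets called. In Sdc4-/- cells Tcf12 was lower at 12 h as well (-2.36, adjusted p = 0.0062). It was the 1 gene of these 7 lists called there, where 6.41% of all probe sets were called. Tcf12 was 2.98 higher at 48 h than at 12 h (adjusted p = 0.00179). The 12 h changes of Tcf12 did not differ between genotypes by the test (0.89, adjusted p = 0.391). They did for 9 genes of the 7 lists, which hold 9, 13, 7, 11, 4, 4 and 7 measured genes. Of all probe sets 11.1% were called in that comparison, 4.37% with the Sdc4-/- change above the WT change. Of these 9 genes, Myf5 averaged under 3 in uninjured and 12 h Sdc4-/- cells, near background. The true size of its difference between genotypes is thus not measured. None of the 7 measured genes of the ligand list that holds Gdf2 averaged 4 or more, and the level of Gdf2 by group is not given here. Bmper, Acvr2a and Acvr1c each averaged under 3 in a WT group, as given above. The Sdc4-/- change was above the WT change for Smad4 (4.69, adjusted p = 0.00545), Smad5 (1.89, adjusted p = 0.00574), Smad7 (2.83, adjusted p = 0.00203), Acvr2a (3.04, adjusted p = 0.0109), Twsg1 (2.19, adjusted p = 0.00645), Bmper (3.31, adjusted p = 0.00217), Myf5 (1.25, adjusted p = 0.00975) and Gdf2 (0.76, adjusted p = 0.0126), and below it for Acvr1c (-0.99, adjusted p = 0.00504).

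The genes whose values ran most like a member over the 17 arrays were listed by Pearson r, as a description over arrays that share groups. Candidates were 8742 probe sets with 1 symbol and a mean of at least 4. Inhba was closest to Thbs1, a matrix protein (r = 0.95), Ereg, an EGF family ligand (0.95), and Tnfaip2 (0.91). Fst was closest to Tnfaip6, a hyaluronan-binding protein (0.95), Adcy5 (0.88) and Abi3bp (0.88). For Id2 they were Gch1, an enzyme of tetrahydrobiopterin synthesis (0.97), Gna13 (0.96) and Bcl10 (0.96). Id3 ran with Iigp1 (0.92) and Gbp3 (0.90), which are interferon-inducible GTPases, and Ccdc82 (0.90), and Bmp2 with Ppp6r3 (0.84), Pdlim1 (0.84) and the collagen gene Col1a2 (0.83).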

How the data were processed

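Total RNA of sorted cells (5000 cell equivalents) was amplified by T7-based linear amplification and hybridized to Affymetrix mouse GeneChips. The authors recovered intensities in GCOS, normalized them by GCRMA and deposited the result on the log2 scale, as used here for all 45101 probe sets. Versions of these programs are not given in the sources used here. No detection calls were used, and values under about 3 have no reliable order. The study removed 1 WT uninjured replicate without numbering it in its text, and replicate 3 was taken to be that array. All comparisons came from 1 limma fit of 6 groups over 17 arrays (lmFit and eBayes, limma 3.58.1, R 4.3.3, 11 residual degrees of freedom) with Benjamini-Hochberg adjustment. Symbols come from the array's annotation: 34958 probe sets carry 1 symbol, and those with several (932) or none (9211) were not named. A gene is represented by its probe set of highest mean. Members and lists were chosen with earlier results of these data known. Named were all members, up to 3 called genes per list with the smallest adjusted p in WT cells at 12 h (or 2 of highest mean), and the 3 most similar genes per member with a mean of at least 4. Of 136 list genes 127 were measured. The fit was tested on simulated data. Alternatives were 9 settings and 17 fits with 1 array left out.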

Additional observations from a re-analysis of the deposited data

Results flagged for a closer look

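The change at 12 h differed between genotypes (Sdc4-/- minus WT, limma contrast, log2 scale) by 7.01 for Id2 1435176_a_at, 5.82 for Fst 1434458_at and 4.23 for Inhba 1422053_at. They stand out because the difference between the genotypes itself passed the test. The WT change of Inhba was -0.0041, whereas Fst and Id2 moved in opposite directions in the 2 genotypes. At 12 h the differences were also 2.82 for Id3 1416630_at (adjusted p = 0.00218), 2.10 for Bmp4 1422912_at (adjusted p = 0.000688) and 1.67 for Id4 1423259_at (adjusted p = 0.00059). At 48 h they were 2.34 for Id3 (adjusted p = 0.0106), 1.91 for Bmp4 (adjusted p = 0.00191) and 1.61 for Id4 (adjusted p = 0.00108). The Id3, Bmp4 and Id4 differences rest on 2 uninjured WT arrays: with WT uninjured replicate 3 fitted as well they were 1.60, 1.36 and 1.10 at 12 h (adjusted p = 0.45, 0.312 and 0.289) and 1.13, 1.17 and 1.04 at 48 h (adjusted p = 0.831, 0.677 and 0.595). With the hybridization-control level fitted, the 12 h differences were 1.98 for Inhba (adjusted p = 0.702), 3.22 for Fst (adjusted p = 0.388), 2.93 for Id3 (adjusted p = 0.178) and 6.02 for Id2 (adjusted p = 0.0274). The Id3 difference at 48 h was also lost without WT uninjured replicate 1 (1.92, adjusted p = 0.0533).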

How the results depend on the processing

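The precision is limited by the number of arrays, by 2 arrays in WT uninjured cells and by values near background. The Id2 and Inhba rises in Sdc4-/- cells at 12 h, the Id2 rise there at 48 h, and the Id2 differences between WT 48 h and 12 h, between genotypes at 12 h and between their 12 h changes kept their direction and call under all 9 settings and with each array left out. Counts of member probe sets called by limma moved as follows, and the cause was not tested. The share of all probe sets called under each setting is not given here. Whether the members moved with the whole array cannot be read from these counts. With all 18 arrays they were 3 (WT 12 h against uninjured), 1 (WT 48 h against uninjured), 0 (genotypes, uninjured), 3 (12 h change) and 0 (48 h change), against 6, 5, 3, 6 and 3. With only the groups compared they were 1 for WT and 1 for Sdc4-/- cells at 48 h against 12 h, and 0, 2 and 0 between genotypes uninjured, at 12 h and at 48 h. After a shift by the 75th percentile, under which the array-wide median change moved by up to 0.34, they were 9 (WT 48 h), 7 and 3 (Sdc4-/- 12 h and 48 h), 5 (Sdc4-/- 48 h against 12 h) and 7 (genotypes, 48 h), and after quantile normalization 0 (genotypes, 48 h). Over the 5 probe sets averaging 4 or more they were 3 (WT 12 h), 3 (WT 48 h), 2 (Sdc4-/- 48 h), 1 (genotypes, uninjured) and 1 (48 h change). Only these 5 of the 15 were tested in that setting, so that called probe sets of lower mean drop out of its counts. Of the results of these 5, 53 kept their status. The Inhba change in Sdc4-/- cells at 48 h gained a call (1.97, adjusted p = 0.0383). The Id3 difference between genotypes at 12 h lost its call (adjusted p = 0.0715). With the hybridization-control level, which goes with the group, as a covariate they were 2 (WT 12 h), 3 (WT 48 h), 1 (WT 48 h against 12 h), 1 and 0 (genotypes, 12 h and 48 h) and 3 (12 h change), and Fst in WT cells at 12 h turned to 0.28 (adjusted p = 0.959). In the fit as described, 5 of 15 had an unadjusted limma p under 0.05 between genotypes, uninjured and at 48 h alike. For the 48 h change 8 of 15 did, and 3 were called in each of these comparisons. These unadjusted counts are not from the settings that gave 0, so they do not bear on the calls lost there. The share of all probe sets with such a p is not given here. Without moderation the Sdc4-/- 48 h against 12 h count was 1. With replicate number as a block it was also 1, and the calls of Inhba there and of Bmp2 between genotypes at 48 h ended. The replicate numbers showed no pairing (correlations over 0.1 in 2 of 40 same-number pairs). With 1 array left out the counts ranged over 5 to 6 (WT 12 h), 4 to 6 (WT 48 h), 1 to 3 (WT 48 h against 12 h), 3 to 3 (Sdc4-/- 12 h), 1 to 3 (Sdc4-/- 48 h), 1 to 2 (Sdc4-/- 48 h against 12 h), 2 to 4, 3 to 5 and 0 to 3 (genotypes, uninjured, 12 h and 48 h), 6 to 6 (12 h change) and 2 to 4 (48 h change), the 0 arising without WT 48 h replicate 2 or 3.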
